A study of Mus musculus with 40 samples.

Results

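Transcripts of 37 interferon-stimulated genes and genes of the major histocompatibility complex (MHC) class I pathway were followed in the mouse extensor digitorum longus (EDL), a muscle of mainly fast fibers. They were taken by gene symbol from a named list, which was chosen with earlier results of these data known. Shares of members set beside shares of all genes therefore describe the list and are no independent test of it. All 37 were among the 22844 genes of the deposited table. The list was divided by function into 6 roles: signalling and transcription factors, RNA sensors, antiviral effectors, interferon-inducible GTPases, antigen presentation and a chemokine. The series held 40 libraries from 40 mice, 5 in each of 8 groups. TSCmKO mice (strain label Tsc1tm1Djk/J) lacked Tsc1, whose product restrains the kinase complex mTORC1, in muscle fibers alone, and other cells of the muscle kept the gene. Controls (CON) were Tsc1 fl/fl littermates without Cre recombinase. Mice of both genotypes were 3 or 9 months old (3mCON, 3mTSCmKO, 9mCON, 9mTSCmKO) and were injected intraperitoneally for 3 days with vehicle or with rapamycin (+RM), which inhibits mTORC1. The labels give 4 mg per kg of rapamycin, and the study's own text gives a higher daily dose, so that the dose is uncertain. Levels are CPM (counts scaled by library total and TMM factors) for comparisons of a gene between groups, and TPM (the authors' values, scaled also by transcript length) wherever genes are compared with each other. Differences are log2 fold changes ± standard error (SE), and a member is said to have risen or fallen only where the adjusted p was below 0.05. In whole-muscle RNA, fewer cells of a type and less RNA per cell cannot be told apart.

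Interferons are secreted proteins that signal through JAK kinases to STAT and IRF transcription factors. Type I interferons act through a complex that contains STAT2 and IRF9 on the interferon-stimulated response element (ISRE), and interferon gamma acts mainly on the gamma-activated sequence (GAS). The induced genes include sensors of viral RNA, proteins that block viral replication, GTPases that attack the vacuoles of intracellular parasites, and the machinery that loads peptides onto MHC class I molecules. Resting muscle fibers carry little MHC class I on their surface, and its appearance there is a known feature of inflammatory myopathy.

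Promoter windows of 250 bases before to 50 bases after a transcription start were available from RefSeq (GRCm38.p6) for 28 of the 37 members. The ISRE core, taken as a pair of GAAA words separated by any 2 bases and searched on both strands in the 250 upstream bases, was present in at least 1 window of 15 of these 28 genes (53.6%), against 3.46% of all 27025 genes in the table. Counted by window, it was in 15 of the 33 windows of the members (45.5%), against 2.98% of all 32851 windows. The GAS motif TTCNNNGAA, which reads alike on both strands, was present in 6 of the 28 genes (21.4%), against 8.13% of all genes, and in 18.2% of the windows of the members, against 7.02% of all windows. A match of letters is a description of sequence and not of binding. No ISRE core was found in the windows of Irf7, Ifi44 and Oasl2, or of 10 other members. Stretches around the cores are shown for 8 of the 15 members that held one, as examples of single, spaced and overlapping cores. They are written in the direction of transcription, with every base of an ISRE core in capitals, and end before the transcription start. Isg15 held 3 overlapping cores at chr4:156200855-156200916 (minus strand), Ifit1 held 2 at chr19:34640765-34640833 (plus strand), and Bst2 held 2 overlapping cores at chr8:71537567-71537622 (minus strand). The stretches of Ifit3 (2 cores, chr19:34583353-34583436, plus strand) and Ifit3b (chr19:34607749-34607832, plus strand) were identical. Igtp held 1 core at chr11:58199502-58199551 (plus strand), B2m held 1 at chr2:122147528-122147577 (plus strand), and Cxcl10 held 1 at chr5:92349073-92349122 (minus strand).
Isg15: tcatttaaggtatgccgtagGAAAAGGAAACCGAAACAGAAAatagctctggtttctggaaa
Ifit1: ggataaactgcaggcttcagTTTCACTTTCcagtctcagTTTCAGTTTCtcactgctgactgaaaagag
Bst2: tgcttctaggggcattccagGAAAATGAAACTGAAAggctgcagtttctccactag
Ifit3: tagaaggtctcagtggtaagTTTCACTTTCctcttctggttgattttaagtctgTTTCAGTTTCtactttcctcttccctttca
Ifit3b: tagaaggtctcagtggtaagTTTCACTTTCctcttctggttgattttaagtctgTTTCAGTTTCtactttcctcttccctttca
Igtp: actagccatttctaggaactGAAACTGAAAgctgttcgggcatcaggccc
B2m: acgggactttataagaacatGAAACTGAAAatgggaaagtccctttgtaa
Cxcl10: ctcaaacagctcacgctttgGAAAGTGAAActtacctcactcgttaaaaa

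Some members share sequence with other genes (GRCm38, GENCODE M21), which bears on how short reads can be assigned to them. Ifit2, Ifit3, Ifit3b and Ifit1 fill the interval from 34550694 to 34650009 of chromosome 19, and Ifit3 shared 61.8% of its 31-base words with Ifit3b. Gbp6 shared 67.8% of its words with the predicted gene Gm43302, and Oas1a shared 68.7% with Oas1g. The class I heavy chain genes H2-K1 and H2-D1 on chromosome 17 shared 22.8% and 26.5% of their words with other genes. Igtp shared 15.9% with Irgm2, and Gbp4, Rtp4 and Ifit1 shared 14.1%, 12.5% and 10.4% with other genes. Values of these 10 genes are uncertain as to which copy they came from. The words were counted over GENCODE transcripts of the genes in the deposited table, while the methods of the study name protein-coding Ensembl transcripts, and which transcripts lay behind the counts was not verified. Irf7, Usp18, Ifi27, Bst2, Ifit2, Ifi35, B2m and Cxcl10 shared none.

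Total counts ran from 8883870 to 35224669 per library. Tsc1 itself was lower in TSCmKO than in CON without overlap between the genotypes, under vehicle. The log2 fold change was -1.99 ± 0.17 in the younger mice (adjusted p = 2.49e-11), and in the older mice it was -1.55 ± 0.17 (adjusted p = 2.33e-09). Summed TPM of 7 muscle fiber markers was 105900 to 154400 over all libraries, and lower in 9mTSCmKO than in 9mCON. The summed TPM of 2 hemoglobin genes was 15380 in 3mTSCmKO replicate 3 and 10450 in 9mCON replicate 1, against 309 to 3340 in the other 38 libraries. Replicate 4 of 3mTSCmKO held 115 TPM of neutrophil markers, while the other libraries held at most 19.5. Results that involve 3mTSCmKO or 9mCON were therefore also computed without the pair of libraries rich in hemoglobin. The labels give insert sizes of 175 to 239 nt for 3-month and of 223 to 308 nt for 9-month libraries. Age and insert size thus went largely together, so that differences with either are hard to tell apart.

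The members covered a wide range of levels, and the antigen presentation genes stood highest. B2m, the light chain of MHC class I, had a mean of 196 ± 53.0 TPM (SD, n = 40 libraries). The heavy chains H2-D1 (125 ± 24.6 TPM) and H2-K1 (114 ± 25.0 TPM) followed, and their values overlapped across libraries. Ifi27, a small mitochondrial and nuclear membrane protein, had 30.3 ± 9.58 TPM, and all 33 other members lay below it. The tethering factor Bst2, which holds budding virus at the cell surface, and the GTPase Irgm1 had nearly equal means of 16.1 ± 6.37 and 15.8 ± 2.89 TPM. At the low end were the RNA sensor Dhx58 (1.64 ± 0.917 TPM), Ifi44 (1.10 ± 0.861 TPM) and Oas1a, an RNA-activated synthetase of oligoadenylates, at 0.423 ± 0.235 TPM. Oas1a was the single member below the count filter and entered no test. Its group means lay between 0.197 TPM in 9mCON+RM and 0.595 TPM in 3mTSCmKO+RM, with 0 to 19 counts per library.

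**Figure D1:**
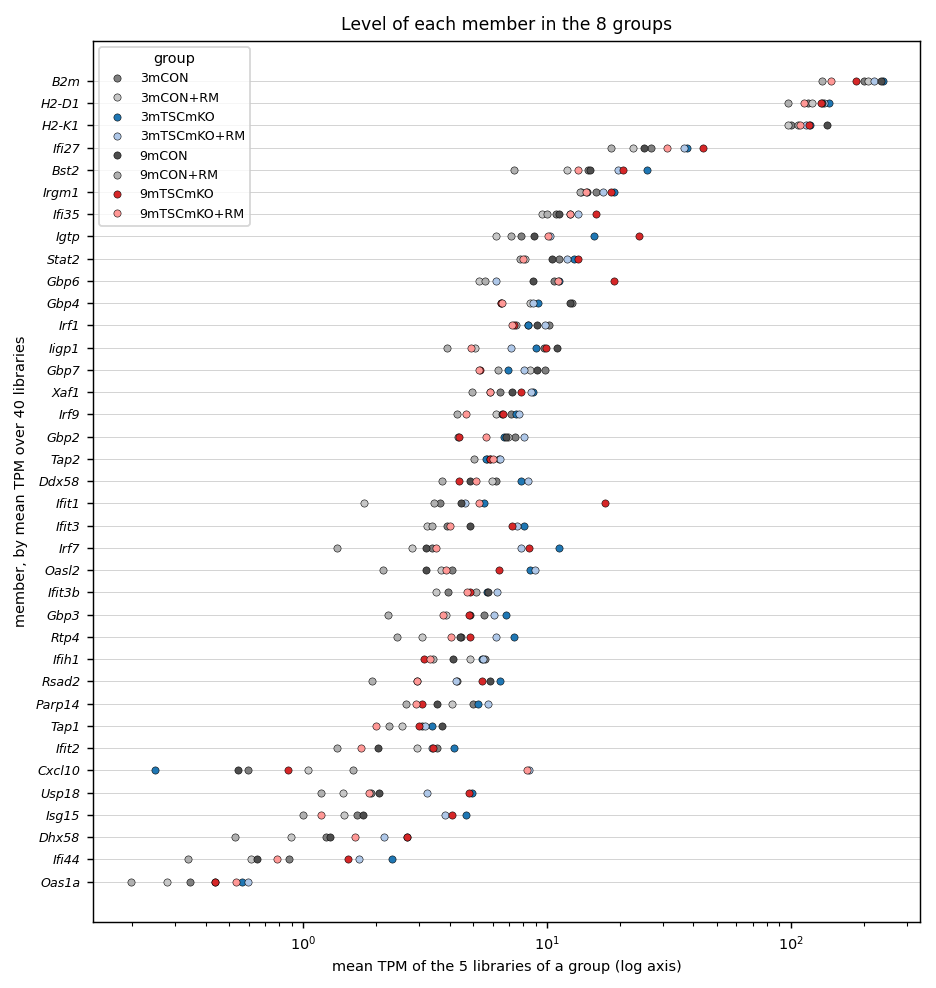
Mean TPM (log axis) of the 5 libraries of each group, with 1 point per group, for the 37 members in order of their mean over 40 libraries. B2m, H2-D1 and H2-K1 stand apart at the top with all group means above 97 TPM, and Cxcl10 shows the widest gap between groups on the log axis, with means from 0.248 to 8.44 TPM.

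At 9 months under vehicle, the 3 largest rises in TSCmKO muscle were those of Ifit1, Irf7 and Ifi44. Of the 36 members tested, 12 were higher in 9mTSCmKO than in 9mCON (background, 19.1% of all 13543 genes tested) and 3 were lower (background, 18.9%). The higher members were Ifit1, Irf7, Ifi44, Igtp, Usp18, Dhx58, Isg15, Gbp6, Oasl2, Ifi27, Ifit2 and Ifi35. The lower members were Gbp4, Gbp7 and Gbp2. Without the pair of libraries rich in hemoglobin, 15 were higher and 1 was lower, and 13 of the 15 calls were kept. The median log2 fold change over the 36 was 0.10, against -0.02 over all genes, and 19 of the 36 differences were positive. Summed T cell markers were 3.30 to 10.2 TPM in 9mTSCmKO and 1.33 to 3.73 TPM in 9mCON, and the 1 of 6 T cell markers that could be tested rose. Macrophage marker sums were 66.4 to 126 TPM and 58.2 to 177.5 TPM, with 1 marker of 9 higher and 1 lower. Of the tendon markers 3 of 4 fell, and of the fibro-adipogenic markers 3 of 5 fell. Muscle fiber marker sums were 105900 to 120400 TPM in 9mTSCmKO and 140100 to 153700 TPM in 9mCON, without overlap, and 3 of 7 fiber, 2 of 5 endothelial and 1 of 3 adipocyte markers fell. The part of these in the genotype comparison was not tested.

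**Figure D2:**
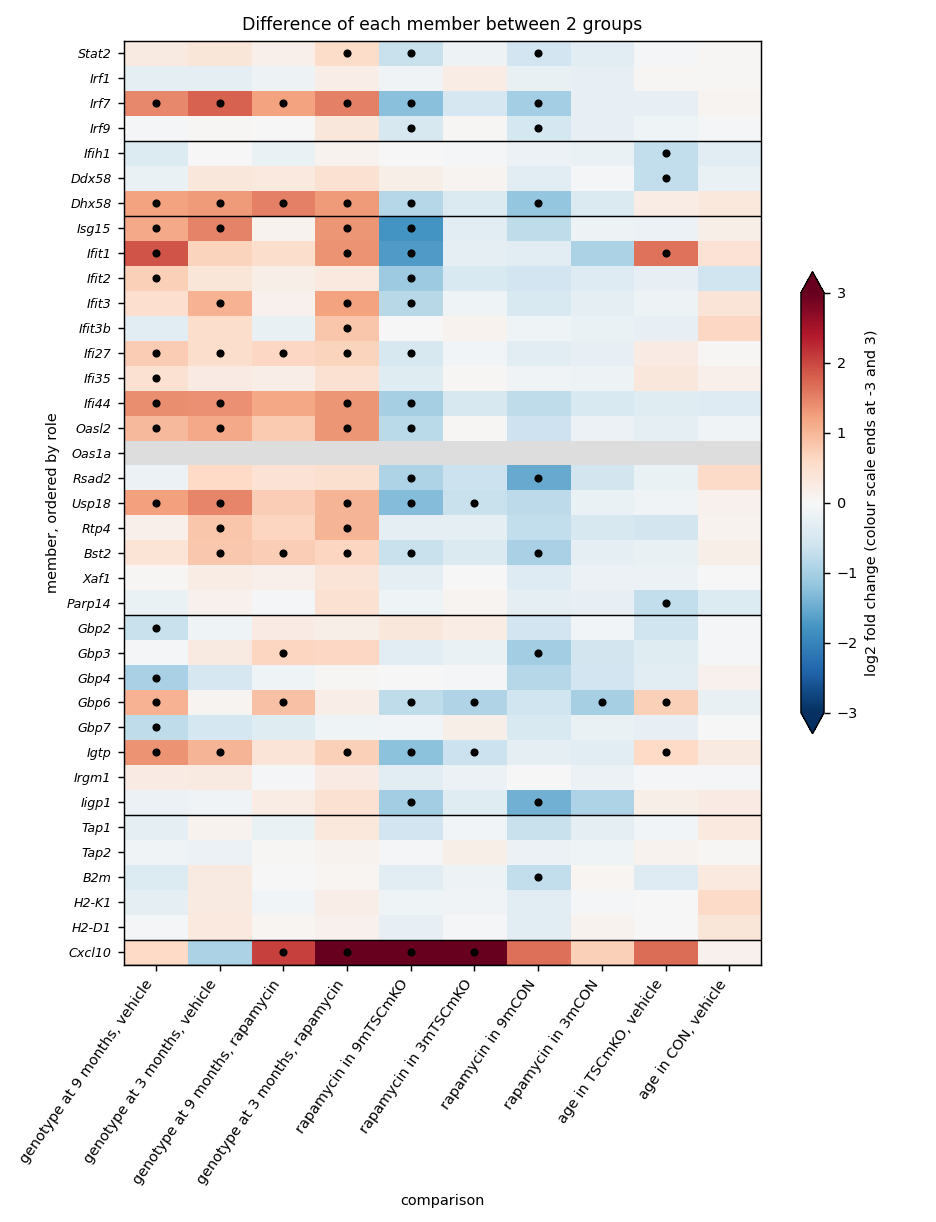
Log2 fold change of each member (rows, by role) in the 10 comparisons of 2 groups (columns), from blue (lower in the group named by the comparison) to red (higher); black dots mark adjusted p below 0.05 and the grey row is Oas1a, which was not tested. Irf7 and Dhx58 rose in each of the 4 genotype comparisons, the 5 antigen presentation genes carry a single dot (B2m, rapamycin in 9mCON), and Cxcl10 rose with rapamycin in both TSCmKO groups.

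Irf7, the transcription factor that amplifies type I interferon production, was measured at 3.66, 2.87, 2.11, 2.07 and 2.32 CPM in the 9mCON libraries. In 9mTSCmKO it was measured at 6.71, 6.94, 11.9, 5.60 and 4.59 CPM. All knockout values lay above all control values, and the log2 fold change was 1.45 ± 0.28, adjusted p = 7.9e-05. The other signalling members were not called: the difference was 0.27 for Stat2, -0.07 for Irf9 and -0.27 for Irf1 on the log2 scale. Irf1, a factor shared by the responses to both interferon types, had 14.2, 5.43, 7.96, 7.75 and 10.8 CPM in 9mCON. In 9mTSCmKO, Irf1 had 9.41, 5.77, 11.9, 6.06 and 5.42 CPM, within the control range apart from replicate 5, which lay just below it.

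Among the sensors, Dhx58 (LGP2, a regulator of RNA sensing) rose and its relatives Ddx58 and Ifih1 were not called. Dhx58 had 1.53, 1.43, 0.893, 0.819 and 1.45 CPM in 9mCON. It had 1.77, 3.77, 3.69, 2.71 and 2.27 CPM in 9mTSCmKO. The genotypes did not overlap, with a log2 fold change of 1.20 ± 0.29, adjusted p = 0.0011. Ddx58 (RIG-I), which detects viral RNA ends, had 7.32, 6.94, 6.25, 6.88 and 7.75 CPM in 9mCON. In 9mTSCmKO it had 2.71, 7.53, 6.87, 6.93 and 6.78 CPM, with replicate 1 far below the other libraries (log2 fold change -0.19 ± 0.19, adjusted p = 0.431). Ifih1 (MDA5), which detects long duplex RNA, differed by -0.41 ± 0.20, adjusted p = 0.107.

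Of the 15 antiviral effectors tested, 8 rose at 9 months (background, 19.1%) and 0 fell (background, 18.9%) by edgeR. At an unadjusted p below 0.05, 13 of the 36 members were higher (background, 22.9%) and 5 were lower (background, 23.7%). Ifit1, which binds viral RNA that lacks cap methylation, had the largest rise of all members. It was measured at 12.1, 5.36, 4.55, 8.08 and 3.10 CPM in 9mCON. In 9mTSCmKO it was measured at 44.0, 25.4, 25.8, 11.4 and 16.4 CPM. The lowest knockout value, in replicate 4, lay just below the highest control value, and the log2 fold change was 1.88 ± 0.35, adjusted p = 4.29e-05. Ifi44, a cytoplasmic protein of the response, had 0.827, 0.377, 0.487, 1.20 and 1.19 CPM in 9mCON and 3.90, 1.65, 2.46, 1.67 and 1.44 CPM in 9mTSCmKO. All knockout values were above all control values (log2 fold change 1.39 ± 0.39, adjusted p = 0.0046). Usp18, a protease that removes ISG15 and dampens interferon receptor signalling, rose by 1.23 ± 0.27, adjusted p = 0.00031. Isg15, the ubiquitin-like modifier itself, rose by 1.14 ± 0.39, adjusted p = 0.0176, but its call was lost without 9mTSCmKO replicate 3 (log2 fold change 0.64, adjusted p = 0.177). Oasl2 also lost its call without that library (log2 fold change 0.60, adjusted p = 0.0921). Calls were lost in 4 of 10 such fits for Ifi35 and for Ifit2, and in 2 for Isg15. Of the 16 libraries in which Isg15 reached the filter's 1 CPM, 14 were of TSCmKO and 2 of CON, so that it entered the test through knockout libraries. Ifi27 was measured at 11.6, 13.8, 7.72, 11.1 and 10.6 CPM in 9mCON. It was measured at 13.2, 17.2, 25.8, 16.6 and 19.8 CPM in 9mTSCmKO, where 4 of 5 values exceeded every control value (log2 fold change 0.75 ± 0.17, adjusted p = 0.000403). Bst2 was not called at this age (0.42 ± 0.20, adjusted p = 0.0926).

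The GTPases moved in both directions. Igtp (Irgm3), a GTPase of parasite vacuoles and lipid droplets, had 13.7, 9.21, 6.58, 9.17 and 8.42 CPM in 9mCON. In 9mTSCmKO it had 10.8, 24.8, 39.3, 25.9 and 20.2 CPM, where replicate 1 fell within the control range and the other 4 lay above it (log2 fold change 1.36 ± 0.22, adjusted p = 6.21e-06). Gbp6 rose from 20.4 ± 7.31 to 42.0 ± 10.3 CPM (SD, n = 5), a log2 fold change of 1.04 ± 0.21, adjusted p = 0.000135. In contrast, Gbp4 fell by 0.98 ± 0.31 (adjusted p = 0.0111), Gbp7 by 0.75 ± 0.20 (adjusted p = 0.00262) and Gbp2 by 0.67 ± 0.25 (adjusted p = 0.0345) on the log2 scale. These 3 genes encode guanylate-binding proteins, as does Gbp6, which rose. Replicate 1 of 9mCON, rich in hemoglobin, held the highest Gbp4 value of its group, and without it Gbp4 differed by -0.48 and Gbp2 by -0.50 with neither called, while Gbp7 kept its call. The call of Gbp2 was lost in 6 of the 10 fits without a single library, those without 9mCON replicate 1, 4 or 5 or 9mTSCmKO replicate 1, 2 or 4 (adjusted p of up to 0.182 over all alternatives). When 9mCON and 9mTSCmKO were fitted alone, none of the 3 was called and 10 members, all higher, were called. Irgm1, which governs autophagy and the fate of other such GTPases, had 23.8, 19.9, 14.6, 16.5 and 18.8 CPM in 9mCON. In 9mTSCmKO it had 18.0, 23.5, 29.7, 20.9 and 19.0 CPM, with overlap and no call (0.25 ± 0.13, adjusted p = 0.131).

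Of the 5 antigen presentation genes, 0 passed the threshold at 9 months by edgeR (background in either direction, 37.9%) or by DESeq2, and 1, B2m, had an unadjusted p below 0.05 (background, 46.5%). A count over 5 genes says little against these shares. B2m was measured at 163, 96.7, 83.7, 108 and 112 CPM in 9mCON. It was measured at 91.0, 71.9, 105, 67.9 and 90.7 CPM in 9mTSCmKO, and the ranges overlapped (log2 fold change -0.40 ± 0.18, adjusted p = 0.0751). H2-D1 was measured at 131, 101, 67.2, 99.6 and 119.7 CPM in 9mCON and at 116, 91.2, 124, 75.7 and 101 CPM in 9mTSCmKO (log2 fold change -0.03 ± 0.16, adjusted p = 0.91). The peptide transporter subunits Tap1 and Tap2 differed by -0.28 and -0.11, and H2-K1 by -0.30, on the log2 scale.

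**Figure D3:**
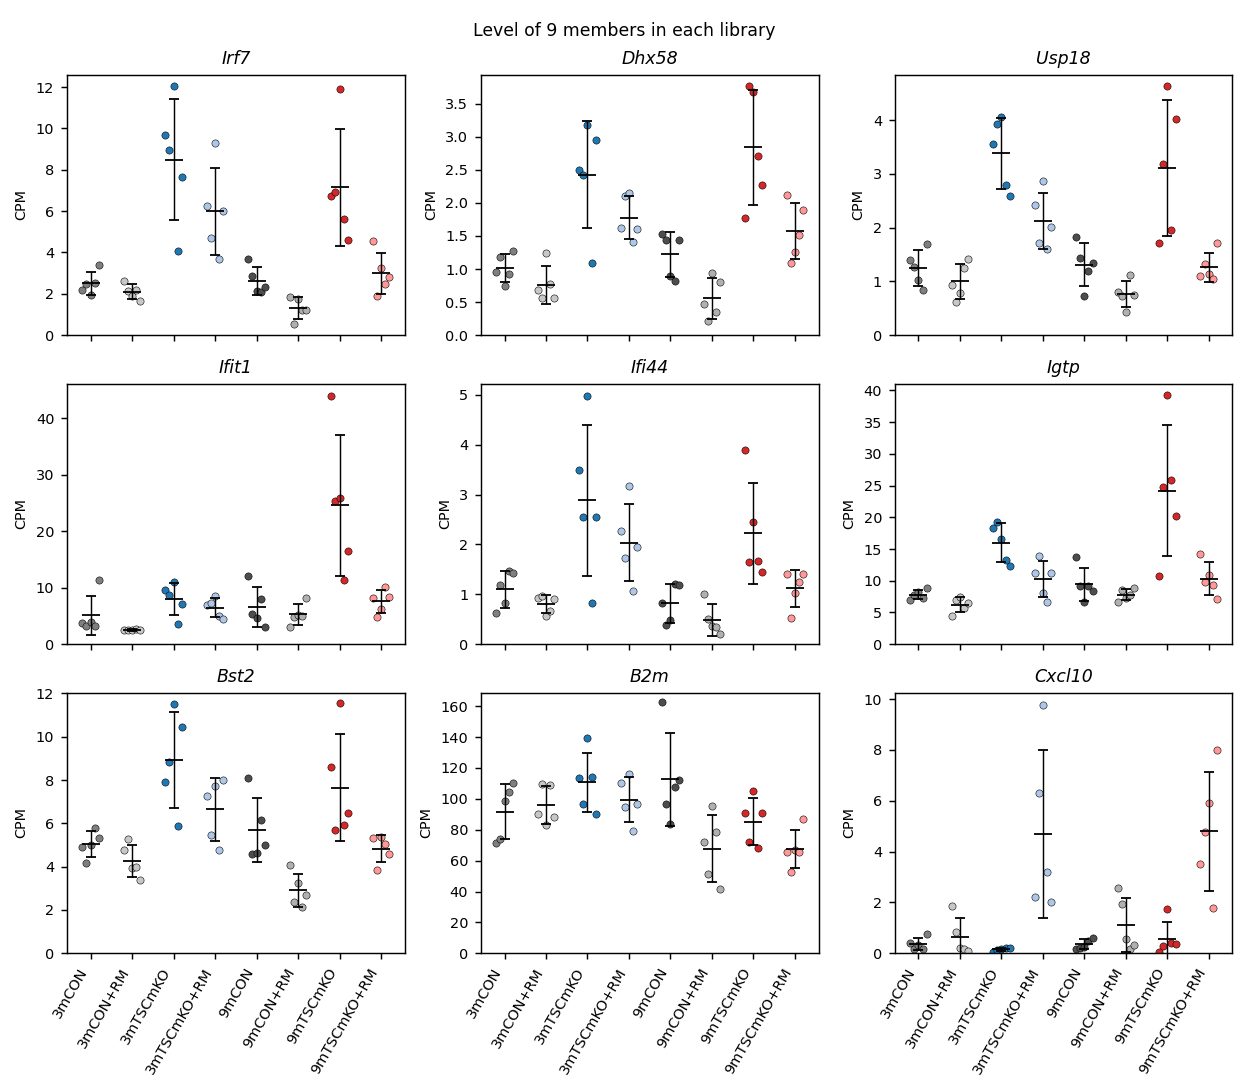
CPM of 9 members in each of the 40 libraries (points, 5 per group), with the mean and SD of each group as bars. The 5 values of Irf7 in 9mTSCmKO (4.59 to 11.9 CPM) lie above those of 9mCON (2.07 to 3.66 CPM), B2m overlaps between genotypes, and Cxcl10 is raised in 3mTSCmKO+RM and 9mTSCmKO+RM.

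At 3 months, when the same genotypes were compared in younger mice, 11 members were higher in 3mTSCmKO than in 3mCON (background, 11.4%) and 0 were lower (background, 8.32%) by edgeR. At an unadjusted p below 0.05, 12 were higher (background, 17.0%) and 1 was lower (background, 14.3%), and DESeq2 called 11 higher and 1 lower. The higher members were Irf7, Isg15, Usp18, Ifi44, Dhx58, Oasl2, Ifit3, Igtp, Rtp4, Bst2 and Ifi27. The median difference over the 36 was 0.29, against -0.02 over all genes. Of the cell type markers, 2 of 3 tested B cell markers (median log2 fold change 2.15) and 2 of 2 tested neutrophil markers (median 2.93) were also higher in 3mTSCmKO. Their part in the result was not tested.

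Irf7 was the member with the largest difference, at 2.18, 2.46, 1.94, 2.53 and 3.38 CPM in 3mCON. In 3mTSCmKO it was measured at 9.69, 8.95, 12.03, 4.06 and 7.67 CPM, without overlap (log2 fold change 1.77 ± 0.28, adjusted p = 8.32e-06). Replicate 4, the library rich in neutrophil markers, held the lowest knockout value. Usp18 was measured at 1.40, 1.27, 1.03, 0.833 and 1.69 CPM in 3mCON. It was measured at 3.56, 3.92, 4.06, 2.78 and 2.59 CPM in 3mTSCmKO, all above the controls (log2 fold change 1.47 ± 0.27, adjusted p = 6.2e-05). Igtp had 6.999, 7.82, 8.22, 7.26 and 8.79 CPM in 3mCON. It had 18.3, 19.3, 16.6, 13.2 and 12.3 CPM in 3mTSCmKO, a clear separation with a log2 fold change of 1.03 ± 0.22, adjusted p = 0.000723. Bst2 had 4.93, 4.18, 4.998, 5.77 and 5.32 CPM in 3mCON and 7.91, 8.82, 11.5, 5.89 and 10.5 CPM in 3mTSCmKO. Every knockout value exceeded every control value (log2 fold change 0.81 ± 0.20, adjusted p = 0.00243).

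The other risen effectors at 3 months had smaller or more scattered differences. Isg15 rose by 1.49 ± 0.38, adjusted p = 0.00391, Ifi44 by 1.37 ± 0.37, adjusted p = 0.00681 and Ifit3 by 1.05 ± 0.28, adjusted p = 0.00602. Ifi27 rose by 0.53 ± 0.17, adjusted p = 0.019. Ifit1, the leading member at 9 months, was not called at 3 months (0.68 ± 0.35, adjusted p = 0.185). Its value was 11.3 CPM in 3mCON replicate 5 and 3.18 to 3.92 CPM in the other 4 controls, and without that library it was called (log2 fold change 1.16, adjusted p = 0.0141). Of the 5 antigen presentation genes, 0 were called by edgeR (background in either direction, 19.8%) or by DESeq2, and 0 had an unadjusted p below 0.05 (background, 31.3%), with log2 differences from -0.19 for Tap2 to 0.30 for H2-D1. With the 2 groups fitted alone, H2-D1 was called (log2 fold change 0.31, adjusted p = 0.0448). All 11 calls were kept without the pair of libraries rich in hemoglobin, and 10 to 12 members were called when 1 library was left out. Ifi27 lost its call in 3 of those 10 fits and Rtp4 in 1.

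Under rapamycin, the genotype difference was measured between treated groups. At 9 months 7 members were higher in 9mTSCmKO+RM than in 9mCON+RM (background, 11.3%), and 0 were lower (background, 9.33%) by edgeR. At an unadjusted p below 0.05, 11 were higher (background, 16.4%) and 0 lower (background, 15.2%), and DESeq2 called 8 higher and 0 lower. All 9 tested macrophage markers had positive differences (median log2 fold change 0.77) with 1 called, and their sums were 39.4 to 68.9 TPM in 9mTSCmKO+RM and 15.4 to 50.4 TPM in 9mCON+RM. Of the endothelial markers 2 of 5 fell, and of the fiber markers 2 of 7 fell. The part of these in the result was not tested. Dhx58 was measured at 0.473, 0.206, 0.941, 0.344 and 0.810 CPM in 9mCON+RM. The gene was measured at 2.11, 1.09, 1.25, 1.52 and 1.89 CPM in 9mTSCmKO+RM, with no overlap (log2 fold change 1.504 ± 0.34, adjusted p = 0.000897). Irf7 was measured at 1.82, 0.514, 1.74, 1.20 and 1.22 CPM in 9mCON+RM. In 9mTSCmKO+RM it was measured at 4.54, 1.902, 3.26, 2.48 and 2.81 CPM, again above every treated control (log2 fold change 1.22 ± 0.32, adjusted p = 0.00442). Gbp6 (0.87 ± 0.21, adjusted p = 0.00235), Ifi27 (0.62 ± 0.17, adjusted p = 0.00671), Bst2 (0.73 ± 0.21, adjusted p = 0.0112), Gbp3 (0.65 ± 0.23, adjusted p = 0.0425) and Cxcl10 completed the list. The call of Gbp3 was lost in 10 of 17 alternatives, among them 7 of the 10 fits without a single library, with an adjusted p of up to 0.125. Isg15, which was higher in the untreated knockout, differed here by 0.10 ± 0.48, adjusted p = 0.918.

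In treated 3-month muscle, 15 members were higher in 3mTSCmKO+RM than in 3mCON+RM (background, 5.67%). By edgeR 0 were lower (background, 4.36%). At an unadjusted p below 0.05, 21 were higher (background, 11.1%) and 0 lower (background, 9.98%), and DESeq2 called 16 higher and 0 lower. The median difference was 0.46 against -0.01 over all genes, and 35 of 36 differences were positive against 48.2% of all genes. Values of 14 members did not overlap between these groups (background, 14.3%). Irf7 had 2.63, 2.15, 1.91, 2.17 and 1.67 CPM in 3mCON+RM. It had 6.26, 4.70, 9.28, 3.69 and 5.99 CPM in 3mTSCmKO+RM, above all treated controls (log2 fold change 1.51 ± 0.29, adjusted p = 0.000342). Of the 15 antiviral effectors, 10 rose: Ifit1 (1.34), Oasl2 (1.33), Ifi44 (1.32), Isg15 (1.32), Ifit3 (1.21), Rtp4 (1.02), Usp18 (1.01), Ifit3b (0.82), Ifi27 (0.68) and Bst2 (0.64), all as log2 fold changes. Dhx58 (1.27), Igtp (0.72) and Stat2 (0.55) rose as well. Stat2, the partner of IRF9 on the ISRE, had 12.2, 6.93, 7.42, 10.9 and 10.6 CPM in 3mCON+RM. It had 14.7, 11.97, 16.6, 12.4 and 15.2 CPM in 3mTSCmKO+RM, where 4 of 5 values exceeded every treated control (log2 fold change 0.55 ± 0.18, adjusted p = 0.0374). Of the 10 fits without a single library, the call was lost in 5 for Stat2 (adjusted p of up to 0.13), 5 for Igtp, 6 for Bst2, 7 for Ifit3b (adjusted p of up to 0.214), 3 for Ifi44 and 2 for Isg15.

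Rapamycin given for 3 days to 9-month knockout mice was followed by lower levels of many of these genes. In 9mTSCmKO+RM 17 members were lower than in 9mTSCmKO (background, 16.8%) and 1 was higher (background, 15.8%). The median difference was -0.42, against -0.04 over all genes. Values of 8 members did not overlap between these groups (background, 15.1%). By role, 3 of 4 signalling factors, 1 of 3 sensors, 10 of 15 effectors and 3 of 8 GTPases fell, and 0 of 5 antigen presentation genes passed the threshold by edgeR (background in either direction, 32.6%) or by DESeq2, with 1, Tap1, at an unadjusted p below 0.05 (background, 42.3%). This comparison shares the 9mTSCmKO libraries with the genotype comparison under vehicle, so that a high value in 1 of them adds to both.

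Ifit1, measured at 44.0, 25.4, 25.8, 11.4 and 16.4 CPM in 9mTSCmKO, was at 8.22, 4.90, 6.20, 10.1 and 8.41 CPM after rapamycin. All treated values lay below all untreated ones (log2 fold change -1.70 ± 0.34, adjusted p = 0.000217). Usp18 was measured at 1.72, 3.18, 4.64, 1.962 and 4.03 CPM without and at 1.09, 1.32, 1.14, 1.03 and 1.71 CPM with rapamycin, the highest treated value lying just below the lowest untreated one (log2 fold change -1.29 ± 0.27, adjusted p = 0.000259). Irf7 fell by 1.26 ± 0.28 (adjusted p = 0.000573) on the log2 scale, also without overlap. Isg15 showed the largest fitted fall, a log2 fold change of -1.79 ± 0.41, adjusted p = 0.000816, but its values overlapped, since 0.624 CPM in 9mTSCmKO replicate 1 was lower than the highest treated value of 0.626 CPM. Igtp was measured at 14.2, 9.85, 10.9, 9.38 and 7.196 CPM after rapamycin and fell by 1.23 ± 0.22 (adjusted p = 4.05e-05). Ifi27 was measured at 16.0, 14.6, 11.9, 11.7 and 12.3 CPM after rapamycin and fell by 0.48 ± 0.16 (adjusted p = 0.0229). Stat2 was measured at 20.2, 15.3, 15.9, 12.6 and 11.2 CPM in 9mTSCmKO. The gene was measured at 8.92, 7.95, 12.1, 7.72 and 10.1 CPM after rapamycin (log2 fold change -0.68 ± 0.18, adjusted p = 0.00289). B2m (-0.34 ± 0.18, adjusted p = 0.151) and H2-D1 (-0.25 ± 0.16, adjusted p = 0.224) were not called.

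The number of falls rested in part on 1 library. Replicate 3 of 9mTSCmKO had the highest members of its group, with a median deviation of 0.63 from the 3mCON mean on the log2 scale, and without it 10 members fell in place of 17. Those that lost their call were Bst2, Dhx58, Ifi27, Ifi44, Ifit3, Oasl2 and Rsad2. Ifit1, Usp18, Irf7, Isg15, Igtp, Ifit2, Iigp1, Gbp6, Stat2 and Irf9 kept theirs. Over the 10 fits without a single library, Rsad2 lost its call in 6, Ifi44 in 4, Dhx58, Ifi27 and Oasl2 in 3 each and Ifit3 in 2. The summed TPM of 10 macrophage markers also differed between these groups, from 66.4 to 126 in 9mTSCmKO and from 39.4 to 68.9 in 9mTSCmKO+RM, and 2 of its 9 tested markers fell. Muscle fiber sums were 105900 to 120400 TPM in 9mTSCmKO and 123200 to 140900 TPM in 9mTSCmKO+RM, without overlap, with 4 of 7 markers higher and 1 lower. Of the other markers, 1 of 4 for tendon and 1 of 5 for endothelium fell, and the satellite cell marker Pax7 rose. Their part in the result was not tested.

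**Figure D4:**
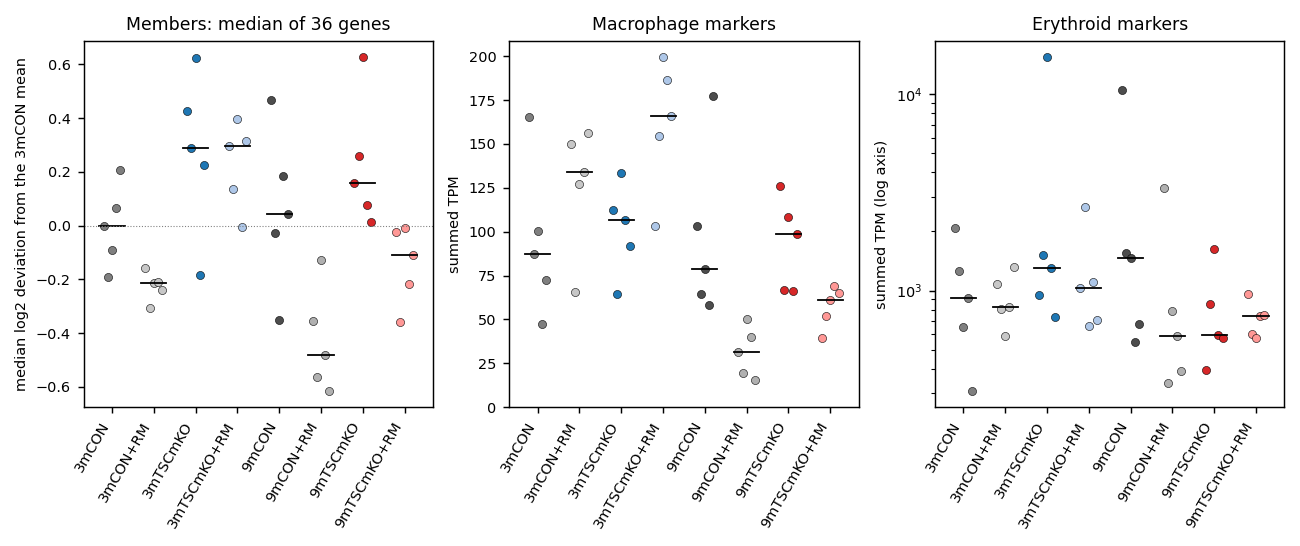
Left, median log2 deviation of the 36 tested members from their 3mCON mean in each library; middle, summed TPM of 10 macrophage markers; right, summed TPM of 2 hemoglobin genes (log axis). Points are libraries (5 per group) and lines are group medians. Median deviations are lowest in 9mCON+RM (-0.61 to -0.13), where macrophage marker sums are also lowest (15.4 to 50.4 TPM), and 9mTSCmKO replicate 3 is highest of all at 0.63.

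In 3-month knockout muscle, fewer members were called after rapamycin. In 3mTSCmKO+RM 3 members were lower than in 3mTSCmKO (background, 13.0%) and 1 was higher (background, 10.6%). On the log2 scale Gbp6 fell by 0.90 ± 0.21 (adjusted p = 0.0014), Usp18 by 0.67 ± 0.25 (adjusted p = 0.0471) and Igtp by 0.63 ± 0.22 (adjusted p = 0.0305). Usp18 was measured at 2.41, 1.72, 2.86, 1.61 and 2.02 CPM after rapamycin, and Igtp at 11.2, 13.9, 8.14, 6.67 and 11.3 CPM, both overlapping the untreated values given above. Irf7 differed by -0.50 ± 0.26, adjusted p = 0.171 and Isg15 by -0.32 ± 0.35, adjusted p = 0.552, with no call. Over the 10 fits without a single library, Usp18 lost its call in 7 and Igtp in 5, while Gbp6 and Cxcl10 kept theirs in all. Both Usp18 and Igtp lost it without 3mTSCmKO replicate 1, 2 or 3 or 3mTSCmKO+RM replicate 4. With upper-quartile scaling, 1 member was lower and 1 was higher. Macrophage marker sums ran from 64.4 to 133 TPM in 3mTSCmKO and from 103 to 199.6 TPM in 3mTSCmKO+RM, with 2 of 9 tested markers higher. B cell markers fell in 2 of 3 cases (median log2 fold change -2.20) and neutrophil markers in 1 of 2 (median -1.94), while 4 of 7 fiber markers rose and 1 fell, and 1 of 5 fibro-adipogenic markers rose. In 3mTSCmKO the B cell sum was far highest in replicate 3 and the neutrophil sum in replicate 4. The part of these markers in the result was not tested.

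In 9-month control muscle, 9 members were lower after rapamycin (background, 6.82%) and 0 were higher (background, 5.03%) by edgeR. With an unadjusted p below 0.05, 20 were lower (background, 13.7%) and 1 was higher (background, 10.7%), and DESeq2 called 12 lower and 0 higher. The 9 were Rsad2, Iigp1, Dhx58, Gbp3, Irf7, Bst2, B2m, Stat2 and Irf9. Here 35 of the 36 differences were negative, with a median of -0.55 against -0.02 over all genes. Bst2 was measured at 8.09, 4.60, 4.63, 6.17 and 5.01 CPM in 9mCON. The gene was measured at 4.05, 2.37, 3.26, 2.15 and 2.70 CPM in 9mCON+RM, below every untreated value (log2 fold change -0.98 ± 0.21, adjusted p = 0.00197). Irf7 fell from the values given above to 1.82, 0.514, 1.74, 1.20 and 1.22 CPM, also without overlap (log2 fold change -1.03 ± 0.32, adjusted p = 0.0296). In the edgeR fit over all 40 libraries, B2m was the only antigen presentation gene called in any of the 10 comparisons. Other fits called further ones, such as H2-K1 (DESeq2, age in CON) and H2-D1 (edgeR, the 3-month vehicle groups alone). B2m was measured at 72.0, 51.3, 95.5, 78.2 and 41.6 CPM after rapamycin, overlapping the untreated values (log2 fold change -0.73 ± 0.18, adjusted p = 0.00559). Its call was lost with the 2 groups fitted alone (adjusted p = 0.0845). Iigp1, a GTPase of parasite vacuoles, fell by 1.44 ± 0.31 (adjusted p = 0.00179). Rsad2 (viperin), which makes a chain-terminating nucleotide, fell by 1.52 ± 0.36 (adjusted p = 0.00478).

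Several values moved with that comparison. Macrophage marker sums were 58.2 to 177.5 TPM in 9mCON and 15.4 to 50.4 TPM in 9mCON+RM, with no overlap, and 7 of 9 tested markers fell with a median log2 fold change of -1.70. All 5 markers of fibro-adipogenic cells and all 4 of tendon fell too, with medians of -1.73 and -3.06. Siglech, a lectin of plasmacytoid dendritic cells, fell as well (log2 fold change -2.34 ± 0.69, adjusted p = 0.0206). The other listed marker of these cells, Bst2, is itself a member counted above and is no separate marker here. The part of these markers in the result was not tested. Without 9mCON replicate 1, 5 members fell in place of 9, and Rsad2 (log2 fold change -0.74, adjusted p = 0.106), Dhx58, Irf7 and Stat2 were no longer called. Over the 10 fits without a single library, Stat2 lost its call in 5, Irf7 in 4 and Dhx58 in 3. Without 9mCON+RM replicate 3, 14 members fell. With these 2 groups fitted alone, 2 members were called.

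In 3-month control muscle, Gbp6 was the only member called after rapamycin, with 1 member lower (background, 0.318%) and 0 higher (background, 0.362%) by edgeR. With an unadjusted p below 0.05, 4 were lower (background, 4.33%) and 0 were higher (background, 4.65%), and DESeq2 called 1 lower and 0 higher. Gbp6 was measured at 16.9, 24.9, 29.2, 24.4 and 23.7 CPM in 3mCON. The gene was measured at 12.7, 9.91, 9.55, 15.9 and 11.3 CPM in 3mCON+RM, all below the untreated values (log2 fold change -0.99 ± 0.21, adjusted p = 0.0151). Its call was lost without 3mCON replicate 3, 3mCON+RM replicate 2 or 3mCON+RM replicate 3, with an adjusted p of up to 0.0643. With these 2 groups fitted alone, 3 members were called, all lower. In the other groups the fitted change of Gbp6 with rapamycin was -0.90 ± 0.21, adjusted p = 0.0014 in 3mTSCmKO, -0.76 ± 0.21, adjusted p = 0.00455 in 9mTSCmKO and -0.60 ± 0.21, adjusted p = 0.0615 in 9mCON.

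The chemokine Cxcl10, which attracts activated T cells through CXCR3, rose in TSCmKO muscle after rapamycin at both ages. Of the other members, 17 fell at 9 months (background, 16.8%) and 3 at 3 months (background, 13.0%). It entered the test through the groups in which it was high: 10 of the 14 libraries that reached 1 CPM were of 3mTSCmKO+RM and 9mTSCmKO+RM, and the other 4 would not have met the minimum of 5. With no such filter it was also called in 3mTSCmKO (log2 fold change 4.73, adjusted p = 1.8e-05) and in 9mTSCmKO (log2 fold change 3.12, adjusted p = 0.000541). In vehicle-treated muscle it was near the limit of detection, with 1 to 31 counts per library. Its level was 0.0659, 0.131, 0.154, 0.224 and 0.216 CPM in 3mTSCmKO. After rapamycin it was measured at 2.23, 6.30, 9.76, 3.18 and 2.02 CPM, without overlap (log2 fold change 4.73 ± 0.72, adjusted p = 5.2e-06). At 9 months it was measured at 0.0520, 0.294, 1.73, 0.404 and 0.350 CPM in 9mTSCmKO, where replicate 3 alone exceeded 0.404 CPM. In 9mTSCmKO+RM it was measured at 3.52, 4.78, 5.93, 1.79 and 7.99 CPM, again all above the untreated values (log2 fold change 3.09 ± 0.63, adjusted p = 0.000232). The rise was therefore opposite in direction to that of 17 other members in the same comparison.

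Control muscle showed more scatter for Cxcl10. Its level was 0.392, 0.182, 0.331, 0.149 and 0.760 CPM in 3mCON and at 1.87, 0.831, 0.225, 0.171 and 0.0858 CPM in 3mCON+RM (log2 fold change 0.72 ± 0.81, adjusted p = 0.919). Its level was 0.177, 0.226, 0.244, 0.491 and 0.620 CPM in 9mCON and at 2.57, 1.95, 0.579, 0.172 and 0.338 CPM in 9mCON+RM (log2 fold change 1.65 ± 0.73, adjusted p = 0.15). Treated controls ran from the level of untreated muscle to several times above it, and neither difference was called. Between treated groups, Cxcl10 was higher in 3mTSCmKO+RM by 3.07 ± 0.65, adjusted p = 0.00117, and in 9mTSCmKO+RM by 2.05 ± 0.59, adjusted p = 0.00995. At 3 months the response to rapamycin was larger in TSCmKO than in CON, with an interaction of 4.01 ± 1.12, adjusted p = 0.0355 on the log2 scale. That call was lost in 12 of 20 fits without a single library, and without the pair of libraries rich in hemoglobin (log2 3.98, adjusted p = 0.0572). At 9 months the interaction of Cxcl10 was 1.45 ± 0.996, adjusted p = 0.433.

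With age, 3 members were higher in 9mTSCmKO than in 3mTSCmKO (background, 19.1%) and 3 were lower (background, 18.3%). Cell type markers differed widely in the same comparison, with 24 of 44 lower and 3 higher. The lower ones were all 3 B cell, both neutrophil, all 4 tendon, all 3 adipocyte and both hemoglobin markers, 3 of 5 fibro-adipogenic, 3 of 5 endothelial, 3 of 7 fiber and 1 of 9 macrophage markers. The higher ones were 1 T cell and 2 macrophage markers. In 3mTSCmKO the B cell sum was far highest in replicate 3 and the neutrophil sum in replicate 4. The part of all these markers in the result was not tested. Ifit1 was measured at 9.55, 8.69, 11.1, 3.58 and 7.09 CPM in 3mTSCmKO, all below the 9mTSCmKO values given above (log2 fold change 1.63 ± 0.34, adjusted p = 0.000323). Ddx58 was measured at 10.8, 11.0, 12.5, 8.35 and 8.53 CPM in 3mTSCmKO, all above the 9mTSCmKO values (log2 fold change -0.73 ± 0.18, adjusted p = 0.00197). Gbp6 (0.72) and Igtp (0.60) rose, and Ifih1 (-0.74) and Parp14, an ADP-ribosyltransferase (-0.74), fell, as log2 fold changes. Ifih1 had 13.6, 11.9, 14.3, 6.53 and 11.1 CPM in 3mTSCmKO and 9.00, 8.36, 6.42, 4.39 and 6.08 CPM in 9mTSCmKO, where 3 of 5 values lay below every younger value (log2 fold change -0.74 ± 0.20, adjusted p = 0.00394). With insert size as a term, in a fit without the 1 library that had no insert size (9mTSCmKO+RM replicate 5), Ifih1 kept its call and the other 5 lost theirs. Leaving out 1 library also ended the call of Igtp in 3 of 10 cases. In control muscle no member differed with age by edgeR: 0 were higher (background, 0.679%) and 0 lower (background, 0.340%), against 3 higher and 1 lower at an unadjusted p below 0.05, where 1301 and 1083 of all 13543 genes stood. DESeq2 called 1 member, H2-K1.

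The difference between the genotype effects at both ages was tested as an interaction, in which edgeR called 0 of the 36 members (background, 4.94%). At an unadjusted p below 0.05 there were 6 (background, 19.5%), and DESeq2 called 1, Gbp6. The interaction was 0.94 ± 0.29, adjusted p = 0.0516 for Gbp6 and 1.20 ± 0.49, adjusted p = 0.157 for Ifit1. For the response to rapamycin at 9 months, edgeR called 0 members in the interaction with genotype (background, 4.87%). There were 4 at an unadjusted p below 0.05 (background, 20.5%), and DESeq2 called 1, Igtp. The interaction was -0.96 ± 0.32, adjusted p = 0.0679 for Igtp and -1.36 ± 0.49, adjusted p = 0.0995 for Ifit1, and both were called without 9mCON replicate 1 (log2 -1.15, adjusted p = 0.0272, and -1.71, adjusted p = 0.0326). At 3 months, Cxcl10 was the 1 member called in the interaction (background, 3.45%).

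Values of the same members in the groups not yet described were as follows, beginning with the signalling factors. Stat2 had 17.4, 12.7, 8.69, 11.5 and 11.98 CPM in 9mCON and 7.70, 7.61, 9.91, 8.17 and 8.71 CPM in 9mCON+RM, of which 3 treated values lay below every untreated one. For 3mCON and 3mTSCmKO, Stat2 was at 11.8, 11.7, 10.9, 13.1 and 13.1 CPM and 16.7, 15.0, 20.6, 10.01 and 16.4 CPM, where 4 knockout values exceeded the controls and replicate 4 lay below them. Irf1 had 10.6, 7.28, 9.50, 7.89 and 9.88 CPM in 3mCON and 8.04, 7.45, 7.97, 6.46 and 7.74 CPM in 3mTSCmKO. With rapamycin, Irf1 had 7.99, 6.17, 7.19, 7.81 and 9.05 CPM in 3mCON+RM, 10.8, 6.93, 6.20, 8.75 and 11.2 CPM in 3mTSCmKO+RM, 9.86, 6.84, 11.4, 5.42 and 5.94 CPM in 9mCON+RM and 9.86, 4.96, 7.94, 5.51 and 7.50 CPM in 9mTSCmKO+RM. Irf1 values overlapped in all of these comparisons.

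Among the sensors, Dhx58 had 0.952, 1.18, 0.744, 0.922 and 1.27 CPM in 3mCON and 2.50, 2.42, 3.19, 1.09 and 2.95 CPM in 3mTSCmKO, where 4 of 5 knockout values exceeded every control. Under rapamycin Dhx58 had 0.680, 0.554, 1.24, 0.770 and 0.557 CPM in 3mCON+RM and 1.62, 2.10, 2.16, 1.41 and 1.60 CPM in 3mTSCmKO+RM, without overlap. Ddx58 had 10.3, 6.82, 8.14, 7.202 and 7.94 CPM in 3mCON, 6.80, 6.65, 8.65, 8.89 and 7.89 CPM in 3mCON+RM and 10.3, 10.2, 11.7, 9.85 and 11.8 CPM in 3mTSCmKO+RM, and the treated genotypes did not overlap although the difference was not called (0.46 ± 0.18, adjusted p = 0.106). At the later age Ddx58 had 4.46, 5.91, 7.53, 3.78 and 6.41 CPM in 9mCON+RM and 7.36, 5.07, 8.65, 6.41 and 7.32 CPM in 9mTSCmKO+RM, which overlapped. Ifih1 had 11.8, 13.4, 9.21, 11.4 and 12.2 CPM in 3mCON, 9.94, 11.3, 9.89, 9.92 and 9.52 CPM in 3mCON+RM and 10.4, 10.04, 16.2, 8.60 and 9.55 CPM in 3mTSCmKO+RM. It stood at 10.04, 7.02, 9.42, 7.75 and 11.3 CPM in 9mCON, 7.03, 8.95, 10.1, 6.88 and 7.15 CPM in 9mCON+RM and 4.54, 5.01, 8.65, 6.89 and 9.51 CPM in 9mTSCmKO+RM, and overlapped between genotypes throughout.

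Of the effectors, Ifit1 had 3.81, 3.18, 3.92, 3.18 and 11.3 CPM in 3mCON and 2.46, 2.49, 2.47, 2.77 and 2.49 CPM in 3mCON+RM, all treated values lying below the untreated ones, with no call (-0.95 ± 0.38, adjusted p = 0.368). It reached 7.0, 7.27, 8.47, 5.03 and 4.51 CPM in 3mTSCmKO+RM, above every treated control, and 3.11, 4.88, 5.14, 5.07 and 8.10 CPM in 9mCON+RM. Ifi44 had 0.616, 1.18, 0.826, 1.46 and 1.44 CPM in 3mCON and 3.49, 2.55, 4.99, 0.832 and 2.56 CPM in 3mTSCmKO, where 4 knockout values exceeded every control. Under rapamycin Ifi44 had 0.935, 0.970, 0.562, 0.656 and 0.900 CPM in 3mCON+RM, 2.27, 1.72, 3.18, 1.06 and 1.957 CPM in 3mTSCmKO+RM, 1.01, 0.514, 0.362, 0.344 and 0.203 CPM in 9mCON+RM and 1.41, 0.519, 1.03, 1.24 and 1.40 CPM in 9mTSCmKO+RM, without overlap of the younger genotypes. Usp18 had 1.83, 1.43, 0.731, 1.20 and 1.34 CPM in 9mCON, 0.811, 0.720, 0.434, 1.12 and 0.742 CPM in 9mCON+RM and 0.935, 0.624, 0.787, 1.25 and 1.42 CPM in 3mCON+RM. Ifi27 had 10.5, 8.46, 15.9, 9.11 and 9.63 CPM in 3mCON and 13.6, 13.5, 17.2, 15.9 and 17.4 CPM in 3mTSCmKO, with 2 knockout values above every control. In treated mice Ifi27 had 10.1, 8.66, 9.10, 9.04 and 8.75 CPM in 3mCON+RM, 15.6, 15.9, 14.2, 11.3 and 16.0 CPM in 3mTSCmKO+RM and 11.3, 9.31, 8.54, 7.82 and 6.28 CPM in 9mCON+RM, and the genotypes did not overlap at either age. Bst2 had 8.58, 5.71, 11.6, 5.95 and 6.47 CPM in 9mTSCmKO and 5.32, 3.86, 5.38, 5.03 and 4.57 CPM in 9mTSCmKO+RM, without overlap. It had 4.76, 5.26, 3.93, 3.96 and 3.39 CPM in 3mCON+RM and 7.28, 5.46, 7.71, 4.75 and 8.01 CPM in 3mTSCmKO+RM, where 4 of 5 values exceeded every control.

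The GTPase Gbp6 had 18.4, 13.8, 13.5, 27.2 and 28.9 CPM in 9mCON and 43.2, 51.9, 44.9, 45.7 and 24.5 CPM in 9mTSCmKO, with 4 knockout values above every control. After rapamycin Gbp6 had 10.9, 13.4, 13.2, 17.4 and 12.9 CPM in 9mCON+RM and 20.7, 27.1, 26.4, 29.6 and 20.2 CPM in 9mTSCmKO+RM, without overlap. In young knockout mice it had 30.2, 14.4, 22.5, 33.8 and 26.0 CPM without and 17.5, 12.2, 14.1, 11.6 and 12.9 CPM with rapamycin, of which 4 treated values lay below every untreated one. Igtp had 4.42, 6.997, 7.42, 5.73 and 6.56 CPM in 3mCON+RM and 6.69, 8.59, 7.24, 7.74 and 8.84 CPM in 9mCON+RM. Irgm1 had 16.1, 18.9, 17.9, 19.97 and 22.9 CPM in 3mCON, 26.0, 24.9, 25.3, 17.8 and 20.8 CPM in 3mTSCmKO, 15.6, 19.7, 17.5, 16.3 and 15.7 CPM in 3mCON+RM and 21.4, 20.04, 22.8, 16.9 and 19.9 CPM in 3mTSCmKO+RM. At 9 months Irgm1 had 22.0, 17.7, 18.4, 16.9 and 17.1 CPM in 9mCON+RM and 19.0, 17.9, 18.9, 15.6 and 17.6 CPM in 9mTSCmKO+RM, and it was called in none of the 10 comparisons.

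For MHC class I, B2m had 71.3, 74.0, 98.5, 104 and 110.4 CPM in 3mCON and 114, 96.8, 139.5, 114 and 90.1 CPM in 3mTSCmKO. Under rapamycin B2m had 90.3, 109, 83.4, 109 and 88.5 CPM in 3mCON+RM, 110.4, 94.9, 116, 79.3 and 96.4 CPM in 3mTSCmKO+RM and 65.6, 52.7, 67.0, 65.8 and 87.1 CPM in 9mTSCmKO+RM. Its genotypes overlapped at each age and treatment. H2-D1 had 80.5, 67.7, 78.1, 85.7 and 93.8 CPM in 3mCON and 108, 107, 109, 78.3 and 98.8 CPM in 3mTSCmKO, where 4 knockout values lay above every control. With rapamycin H2-D1 had 88.9, 84.9, 75.9, 100.1 and 85.0 CPM in 3mCON+RM, 88.3, 90.1, 103, 87.2 and 108 CPM in 3mTSCmKO+RM, 87.3, 59.8, 123, 80.0 and 60.1 CPM in 9mCON+RM and 88.5, 74.5, 101, 73.8 and 89.0 CPM in 9mTSCmKO+RM, with overlap in every comparison.

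Other genes of the same pathway were followed from a list of 76, of which 62 were tested: interferon receptors, kinases, sensors, other induced genes and class I antigen processing. At 9 months under vehicle 8 of the 62 were higher in TSCmKO (background, 19.1%) and 10 were lower (background, 18.9%), both smaller shares than over all genes, with a median of -0.09. The largest rises were Mx2 (3.85 ± 0.34, adjusted p = 1.28e-11) and Mx1 (1.36 ± 0.38, adjusted p = 0.00487), dynamin-like GTPases that trap viral particles, and the chemokine Cxcl9 (0.88 ± 0.34, adjusted p = 0.042). The largest falls were the exonuclease Isg20 (-1.36 ± 0.53, adjusted p = 0.0386), Nlrc5, the transactivator of class I genes (-1.09 ± 0.34, adjusted p = 0.00982), and the proteasome activator subunit Psme1 (-0.78 ± 0.11, adjusted p = 8.5e-07). Mx2 rose from 0.653 ± 0.217 CPM in 9mCON to 9.37 ± 3.12 CPM in 9mTSCmKO (SD, n = 5) without overlap. Mx1 was low in these groups, with means of 0.653 and 1.70 CPM in the same order, and its values overlapped. Both genes thus had control means below the filter's 1 CPM. Whether they entered the test only through groups in which they were high was not tested. With rapamycin in 9mTSCmKO, 11 of the 62 fell (background, 16.8%), a share near the background, and 3 rose (background, 15.8%), a smaller share. Mx2 (-2.09 ± 0.30, adjusted p = 1.1e-06), Mx1 (-1.98 ± 0.41, adjusted p = 0.000238) and Cxcl9 (-1.46 ± 0.36, adjusted p = 0.0017) fell most. The rises were the peptide trimmer Erap1 (0.58 ± 0.14, adjusted p = 0.00169), the kinase Tyk2 (0.34 ± 0.12, adjusted p = 0.0276) and Irf2 (0.30 ± 0.11, adjusted p = 0.0329), a factor that opposes IRF1. Genotype at 3 months gave 5 higher (background, 11.4%) and 1 lower (8.32%), and under rapamycin it gave 4 higher (5.67%) and 0 lower (4.36%) at 3 months and 8 higher (11.3%) and 3 lower (9.33%) at 9 months. Rapamycin gave 3 higher (10.6%) and 4 lower (13.0%) in 3mTSCmKO, 0 higher (5.03%) and 7 lower (6.82%) in 9mCON, and 0 in either direction in 3mCON (0.362% and 0.318%). Age gave 7 higher (19.1%) and 14 lower (18.3%) in TSCmKO and 0 in either direction in CON (0.679% and 0.340%).

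Within groups, members differed in how far they moved together from mouse to mouse. After group means were removed, the correlation of a member with the median of the other 35 over 40 libraries was highest for Irf7 (r = 0.796), Iigp1 (r = 0.794) and Oasl2 (r = 0.792). It was lowest for Gbp6 (r = 0.062), Cxcl10 (r = 0.145) and Ifi27 (r = 0.253). H2-K1 (r = 0.778), H2-D1 (r = 0.746) and Tap1 (r = 0.738) varied with the other members within groups. In the fit over all groups they were not called between genotypes. All points of such a correlation share their library, depth and cell composition. The median deviation of the members in a library ran from -0.35 to 0.47 in 9mCON, from 0.01 to 0.63 in 9mTSCmKO, from -0.61 to -0.13 in 9mCON+RM and from -0.36 to -0.01 in 9mTSCmKO+RM. At 3 months it ran from -0.19 to 0.21 in 3mCON, from -0.18 to 0.62 in 3mTSCmKO, from -0.31 to -0.16 in 3mCON+RM and from -0.00 to 0.40 in 3mTSCmKO+RM. The highest libraries of 9mCON and 3mTSCmKO were the ones rich in hemoglobin.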

How the data were processed

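Poly(A) RNA of EDL muscle was sequenced as 1 library per mouse. The authors trimmed reads with Cutadapt 1.9.1 and, per the submitters' processing notes, used kallisto 0.43.1 with GRCm38. The deposited estimated counts per gene, in which a read compatible with several transcripts was divided among them, were rounded to whole numbers. The deposited TPM values, scaled by the authors for depth and transcript length, were used only to compare genes and to sum markers.

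Groups were taken from the sample labels. Genes with at least 1 CPM in at least 5 libraries were kept (13543 of 22844), scaled by TMM and fitted over all 40 libraries with edgeR 4.0.16 (R 4.3.3) by its quasi-likelihood test, with Benjamini-Hochberg adjustment over all tested genes. DESeq2 1.42.0, other scalings, no filter, the compared groups alone, insert size, a replicate block and leaving out each library were alternatives, and leaving out the pair of libraries rich in hemoglobin was added after seeing the data. Scripts were tested on simulated data. Members and lists were chosen with earlier results of these data known. Values in every library were given for the 2 members of each role with the highest mean TPM, and for the 2 largest called rises and falls without overlap in each pairwise comparison. Pathway genes were named for 2 comparisons, as the 3 largest called changes in each direction. Other members were named with their fitted values. Total counts of 8883870 to 35224669 limit the precision of low genes such as Cxcl10 and Oas1a.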

Additional observations from a re-analysis of the deposited data

Results flagged for a closer look

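Of 144 sets of 5 libraries examined (the members shown by library, and the median deviation of all members, in each group), 8 had a highest or lowest library far from the other 4, where chance gives about 5% of such sets. Ifit1 was at 11.32 CPM in 3mCON replicate 5, against 3.924 CPM in the next library, and at 2.765 CPM in 3mCON+RM replicate 4, against 2.494 CPM. Ifi27 was at 15.95 CPM in 3mCON replicate 3, against 10.47 CPM. Ifih1 was at 11.29 CPM in 3mCON+RM replicate 2, against 9.941 CPM, and at 16.18 CPM in 3mTSCmKO+RM replicate 3, against 10.38 CPM. Irgm1 was at 22.02 CPM in 9mCON+RM replicate 1, against 18.38 CPM. Ddx58 was at 2.705 CPM in 9mTSCmKO replicate 1, against 6.781 CPM in the next lowest library. Cxcl10 was at 1.731 CPM in 9mTSCmKO replicate 3, against 0.404 CPM.

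The response of Cxcl10 to rapamycin at 3 months differed between genotypes in the test of the interaction, by 4.01 on the log2 scale (edgeR, adjusted p = 0.0355). This call was lost in 14 of 28 alternatives, among them 12 of 20 fits without a single library, the fit without a filter and the fit without the pair of libraries rich in hemoglobin.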

How the results depend on the processing

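No called difference of a member reversed under any alternative, and the cause of each change below was not tested. Leaving out 1 library at a time, the number of members called was 12 to 16 for genotype at 9 months, 10 to 12 at 3 months, 6 to 8 at 9 months under rapamycin and 11 to 17 at 3 months under rapamycin. It was 11 to 20 for rapamycin in 9mTSCmKO, 2 to 5 in 3mTSCmKO, 5 to 14 in 9mCON and 0 to 1 in 3mCON, 5 to 7 for age in TSCmKO and 0 to 1 in CON. For the interactions it was 0 to 1 (genotype and age), 0 to 2 (rapamycin and genotype, 9 months) and 0 to 1 (3 months). With only the compared groups fitted, 2 members were called for rapamycin in 9mCON and 3 in 3mCON. Upper-quartile scaling left 2 for rapamycin in 3mTSCmKO, and with insert size as a term 2 were called for age in TSCmKO, 1 of the 6 (Ifih1) and 1 other (Ifi27). DESeq2 called 1 for age in CON and 1 for the interaction at 9 months. For genotype and age, DESeq2, its size factors, upper-quartile scaling and the replicate block each called 1. Without the pair of libraries rich in hemoglobin, 16 were called for genotype at 9 months, 5 for rapamycin in 9mCON, 1 for genotype and age, 2 for the interaction at 9 months and 0 at 3 months, where no filter also gave 0. Replicate numbers did not pair the libraries. A correlation above 0.1 was found in 34 of 140 same-numbered pairs (median r = -3.01e-05) and in 134 of 560 differently numbered pairs (median r = -0.00577). The replicate block changed no other count by more than 1.5 times. Levels of Cxcl10 and Oas1a are limited by depth.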
